A study of Mus musculus with 12 samples.

Results

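The chaperonin CCT, also called TRiC, was followed through the genes of its 8 subunits (Tcp1, Cct2, Cct3, Cct4, Cct5, Cct6a, Cct7 and Cct8) in mouse neural progenitor cells whose lamin B1 gene was open to deletion by Cre or intact. The genes were chosen by symbol, with no threshold on their values. All 8 were found among the 42802 features measured at day 9 and the 43309 features measured at day 5, and all 8 passed the filter on low counts on both days. The cKO cells carried 2 floxed lamin B1 alleles (LaminB1 fl/fl; Ai3) and the WT cells had an unmodified gene (LaminB1+/+; Ai3). Ai3 is a reporter allele that makes EYFP once Cre has acted. Cells of both genotypes were C57BL/6, grew with 10 ng/ml each of EGF and FGF-2, and received a lentivirus with Cre under a Sox2 promoter (pSox2-Cre), so the WT cells met virus and Cre as well. EYFP-positive cells were sorted 9 or 5 days later and their polyadenylated RNA was sequenced, which gave 12 libraries in 4 groups of 3: cKO and WT at day 9, and cKO and WT at day 5. Nothing in the labels ties the replicates to separate cultures or animals. The p-values below therefore reflect how far the libraries of a group lay apart, and that scatter may be technical. The comparisons ask how the RNA of the chaperonin, its helpers and its clients stood when lamin B1 was targeted.

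CCT is a double ring of 8 related subunits in each ring, built in a fixed order, which encloses newly made proteins in the cytosol and folds them in cycles of ATP hydrolysis. Actins and tubulins depend on it, as do several proteins with WD40 repeats, among them the mitotic activators Cdc20 and Fzr1 and the G protein beta subunits. Prefoldin hands unfolded actin and tubulin chains to the ring, phosducin-like proteins assist it, and the tubulin cofactors join folded alpha and beta tubulin into dimers. Dividing cells and cells that remodel their cytoskeleton make large amounts of actin and tubulin.

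Some libraries stood apart before any comparison of the chaperonin. Totals ran from 13315399 to 22988516 counts in the cKO and from 24413023 to 24662871 in the WT libraries of day 9, and from 26720620 to 28540142 in the cKO and from 29460433 to 32127716 in the WT libraries of day 5. Structural RNA, 12 features led by Gm42418, took 69.7%, 0.350% and 68.3% of all counts in cKO replicates 1 to 3 of day 9, against 15.7%, 34.6% and 17.7% in the WT libraries. It took 14.1% in cKO replicate 2 of day 5 and from 0.0739% to 0.506% in the other 5 libraries of that day. At day 5, cKO replicate 2 and WT replicate 1 also stood apart from the others in the balance of GC-rich and GC-poor genes, given below beside the result it touches. Lmnb1, the targeted gene, was at 32.8 to 39.4 CPM (counts scaled to library size, with TMM factors within a day) in the cKO and at 156 to 210 CPM in the WT libraries of day 9, and at 37.8 to 45.0 CPM in the cKO and at 247 to 288 CPM in the WT libraries of day 5. The progenitor markers Sox2 and Nes were present in every library: over both days Sox2 lay between 148 and 285 CPM and Nes between 65.0 and 1186 CPM. At day 9 Nes lay lower in cKO, at 81.8, 65.0 and 84.6 CPM, against 250, 352 and 304 CPM in the WT libraries. Sox2 overlapped between the genotypes on that day.

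The 8 subunit genes lie on 8 chromosomes. Coordinates are from GENCODE vM21 on GRCm38 (mm10), and the share of G and C was counted over the longest annotated transcript, a coding one where the gene has any. Tcp1, the alpha subunit, is at chr17:12915701-12925067 on the forward strand, and Cct2, the beta subunit, at chr10:117051001-117063814 on the reverse strand. Cct3, the gamma subunit, is at chr3:88297116-88321767 on the forward strand, and Cct4, the delta subunit, at chr11:22990519-23003780 on the forward strand. Cct5, the epsilon subunit, is at chr15:31590800-31601804 on the reverse strand, and Cct6a, the zeta subunit, at chr5:129786998-129846371 on the forward strand. Cct7, the eta subunit, is at chr6:85451514-85468475 on the forward strand, and Cct8, the theta subunit, at chr16:87483326-87495873 on the reverse strand. Of these loci 7 are annotated as protein coding in that release, and Cct6a as a processed transcript. Their transcripts differ in base composition: Cct7 is the richest in G and C at 53.95%, Cct5 and Cct3 are at 50.24% and 49.32%, Cct6a, Tcp1 and Cct2 are at 47.39%, 47.38% and 47.22%, and Cct4 and Cct8 are at 45.09% and 43.32%. Genes on the opposite strand overlap exons of Tcp1 (Mrpl18 by 141 and Acat3 by 571 bases), Cct6a (Psph by 452 bases), Cct7 (Pradc1 by 214 bases) and Cct8 (Usp16 by 192 bases). The sources used here do not state whether the counting used strand, so reads from such shared exons cannot be told apart. The small nucleolar RNA genes Gm26130 and Snora15 also lie on exons of Tcp1 and Cct6a, by 138 and 102 bases. The pseudogenes Tcp1-ps1 and Cct3-ps1 drew at most 0 and 1.11 counts in any library, and the relatives Cct6b and Cct8l1 at most 11 and 3 counts.

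The promoters of Cct7 and Cct8 are shown because these subunits differ most in base composition and their ratio is used later, and that of Cct2 because its level followed the mean of the 8 subunits most closely. Each stretch runs 5′ to 3′ on the strand of its gene, is taken from RefSeq (GRCm38.p6) and leaves out annotated exons. Capitals mark GC boxes (GGGCGG), boxes named by their letters CCAAT, and ETS cores (CCGGAAG) on either strand, none of which overlaps another here.
Cct7 (chr6:85451284-85451504, forward): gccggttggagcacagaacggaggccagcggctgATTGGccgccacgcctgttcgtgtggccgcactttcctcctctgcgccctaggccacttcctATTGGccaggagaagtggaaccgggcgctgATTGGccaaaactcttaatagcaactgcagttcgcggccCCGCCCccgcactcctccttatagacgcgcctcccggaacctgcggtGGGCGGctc
Cct8 (chr16:87495874-87495998, reverse): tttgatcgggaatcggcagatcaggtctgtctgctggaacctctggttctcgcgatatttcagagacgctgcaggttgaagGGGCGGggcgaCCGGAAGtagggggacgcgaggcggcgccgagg
Cct2 (chr10:117063853-117064102, reverse): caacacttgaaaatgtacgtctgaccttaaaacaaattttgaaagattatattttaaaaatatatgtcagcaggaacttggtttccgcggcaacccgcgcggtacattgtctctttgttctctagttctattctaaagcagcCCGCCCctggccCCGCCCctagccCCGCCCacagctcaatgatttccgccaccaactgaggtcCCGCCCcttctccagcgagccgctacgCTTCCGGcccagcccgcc
The stretch of Cct7 holds 2 GC boxes and 3 CCAAT boxes, that of Cct8 1 GC box and 1 ETS core, and that of Cct2 4 GC boxes and 1 ETS core. RefSeq windows of 250 bases before a start site were given for 7 of the 8 genes, 9 windows in all with 2 each for Cct2 and Cct5, and none was used for Cct4. A GC box was in 8 of these 9 windows, against 32.7% of all 32851 promoter windows of that length, and a CCAAT box in 4 of 9 (Tcp1, Cct3, Cct6a and Cct7), against 33.8%. An ETS core was in 2 of 9, against 6.91%. The letters TATAAA were in 0 of 9, against 12.4% of all windows, and the E-box CACGTG in 0 of 9, against 6.02%. The core of a heat shock element, GAANNTTC, was in 1 of 9, a second window of Cct2, against 6.69%. These are matches of letters and not sites of a factor.

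Per transcript length, the subunits were not equally abundant. Cct5 had the highest TPM of the 8 subunits in each of the 12 libraries, and Cct4, Cct6a or Cct7 the lowest, with a ratio of highest to lowest between 1.93 and 2.69. In the cKO libraries of day 9, Cct5 made up 18.03 ± 0.373% of the summed TPM of the 8 subunits (mean ± SD, n = 3), then Cct3 14.3 ± 0.737%, Cct2 13.9 ± 0.0862%, Tcp1 12.8 ± 0.282%, Cct8 12.4 ± 0.728%, Cct6a 10.5 ± 0.0152%, Cct7 9.00 ± 0.276% and Cct4 8.93 ± 0.668%. In the WT libraries of day 9 the order was Cct5 with 19.6 ± 0.372%, Cct2 14.8 ± 0.382%, Tcp1 12.9 ± 0.539%, Cct3 12.9 ± 0.429%, Cct8 11.2 ± 0.386%, Cct7 10.5 ± 1.20%, Cct4 9.08 ± 0.282% and Cct6a 9.08 ± 0.596%. Neighbours whose ranges overlapped were Cct3 and Cct2, Tcp1 and Cct8, and Cct7 and Cct4 in cKO, and Tcp1 and Cct3, Cct8 and Cct7, and Cct4 and Cct6a in WT. At day 5, Cct5 led with 18.2 ± 1.18% in cKO and 19.3 ± 1.79% in WT and Cct4 was last with 9.33 ± 1.29% and 8.90 ± 1.32%. All neighbours between the second and the last rank overlapped at day 5 in both genotypes.

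At day 9, the first comparison, Cct7 RNA was lower in cKO cells and the other 7 subunits did not pass the test. Cct7 was at 157, 185 and 148 CPM in the cKO libraries (replicates 1 to 3), against 223, 197 and 212 CPM in the WT libraries. Every cKO library lay below every WT library. The means were 163 ± 19.4 CPM in cKO and 211 ± 13.0 CPM in WT (SD, n = 3). Cct7 fell 1.29-fold (log2 fold change -0.37 ± 0.12 SE, 95% interval -0.64 to -0.09; edgeR adjusted p = 0.0371, Benjamini-Hochberg over all genes tested). Thus 1 of 8 subunits fell and 0 rose, while among all 14617 genes tested 22.6% fell and 21% rose. The median log2 fold change was -0.18 over the subunits and 0.01 over all genes. In such bulk RNA, fewer cells of a type and less RNA per cell cannot be told apart.

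The call of Cct7 rested on 5 of the 6 libraries. Leaving out cKO replicate 1 or 3 or a WT replicate gave adjusted p-values between 0.0694 and 0.118 (edgeR, Benjamini-Hochberg). An offset for GC content, chosen after seeing the data, gave a log2 fold change of -0.14 and no call (edgeR adjusted p = 0.436, Benjamini-Hochberg). Over all 17 alternatives the adjusted p of Cct7 lay between 0.00532 and 0.571, with cKO lower in each. In the filtered fits on TPM among these, the median of all genes lay below 0 as well. Without cKO replicate 2, the cKO library with little structural RNA, the adjusted p of Cct7 was 0.00532 (edgeR, Benjamini-Hochberg). There 4 subunits were called lower, Cct2, Cct5, Cct7 and Tcp1. That fit called 7507 of all genes in either direction, against 6378 with all libraries.

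Cct5, the most abundant subunit, was at 244, 265 and 215 CPM in the cKO libraries, against 278, 296 and 309.9 CPM in the WT libraries of day 9. All 3 cKO libraries lay below all 3 WT libraries here too, but the difference missed the threshold (log2 fold change -0.29 ± 0.12 SE, 95% interval -0.55 to -0.02; edgeR adjusted p = 0.0744, Benjamini-Hochberg). DESeq2 called Cct5 as well as Cct7 (Benjamini-Hochberg adjusted p = 0.0274 and 0.0120). How many of all genes DESeq2 called at day 9 is not given here, so these calls have no share of all genes beside them. Lack of overlap with cKO lower was thus found for 2 of 8 subunits, against 30.2% of all genes tested, and with cKO higher for 0 of 8, against 27.6%.

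Cct2 was at 199, 225 and 181 CPM in cKO, against 217, 246 and 254 CPM in WT at day 9. Tcp1, the subunit that gave the family its first name, was at 183, 201 and 153 CPM in cKO, against 189.8, 231 and 215 CPM in WT. In both genes cKO replicate 2 lay within the range of the WT libraries and the other cKO libraries below it. Their log2 fold changes were -0.24 ± 0.12 for Cct2 and -0.24 ± 0.13 for Tcp1 (SE; edgeR adjusted p = 0.131 and 0.170, Benjamini-Hochberg). Cct4 ran from 90.3 to 135 CPM in cKO and from 117 to 129.8 CPM in WT (log2 fold change -0.13 ± 0.15, 95% interval -0.47 to 0.21).

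The remaining 3 subunits had values on both sides. Cct8 was at 145, 170.1 and 129 CPM in cKO, against 133, 156 and 154 CPM in WT at day 9, a log2 fold change of 0.00 ± 0.13 (95% interval -0.29 to 0.30; edgeR adjusted p = 0.984, Benjamini-Hochberg). Cct6a was at 123, 138 and 110.2 CPM in cKO, against 103, 129.8 and 122 CPM in WT, a log2 fold change of 0.06 ± 0.13 (95% interval -0.23 to 0.35). Cct3 ran from 188 to 221 CPM in cKO and from 195 to 218 CPM in WT, a log2 fold change of -0.03 ± 0.11 (95% interval -0.28 to 0.22). For all 8 subunits cKO replicate 2 was the highest cKO library.

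**Figure D1:**
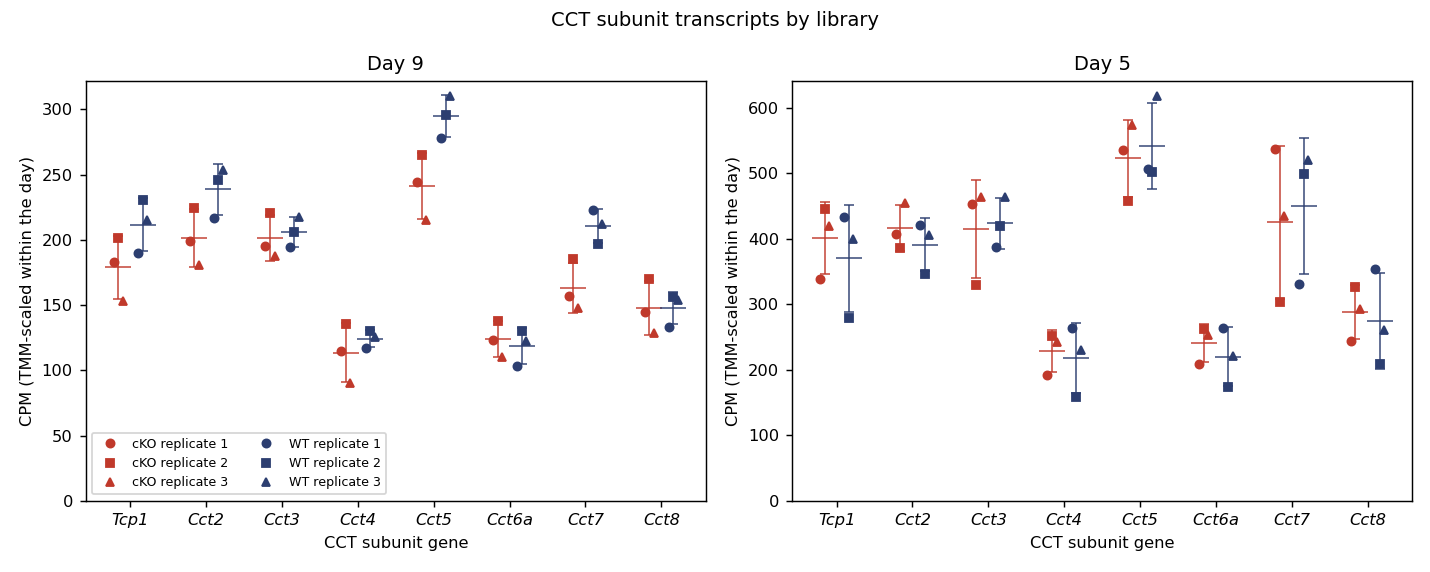
CPM (TMM-scaled within a day, so the panels have separate scales) of each CCT subunit in each library of day 9 (left) and day 5 (right), with cKO in red and WT in blue; marks are libraries, and bars are the mean with SD of 3 libraries. At day 9 the cKO and WT libraries of Cct5 and Cct7 do not overlap, and at day 5 all 8 subunits overlap.

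With structural RNA set aside, the 8 subunits together took 0.216%, 0.267% and 0.198% of the remaining counts in the cKO libraries of day 9, against 0.250%, 0.275% and 0.275% in the WT libraries. Replicate 2, with 0.350% structural RNA, had the highest cKO value and lay above WT replicate 1. At day 5 the shares were 0.289%, 0.292% and 0.323% in cKO, against 0.319%, 0.262% and 0.309% in WT, with the groups overlapping.

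At day 5, the second comparison, no subunit passed the test. Lmnb1 was the 1 gene called of 14849 (0.00673%, edgeR, lower in cKO, with 0% higher), and 0 of 8 subunits passed. An unadjusted edgeR p under 0.05 was found for 0 of 8, against 89 of the 14849 genes. DESeq2 called 0 of 8 as well. Cct7 was at 537, 304 and 435 CPM in the cKO libraries of day 5, against 331, 499 and 521 CPM in the WT libraries. The spread within each genotype was larger than the difference of the means, 425 ± 117 CPM in cKO and 450.1 ± 104 CPM in WT (SD, n = 3). Cct8 was at 244, 327 and 293 CPM in cKO, against 354, 208 and 261 CPM in WT. For Cct7 the low libraries were cKO replicate 2 and WT replicate 1, and for Cct8 these were the high ones. Log2 fold changes ran from -0.08 (Cct7, 95% interval -0.78 to 0.62) to 0.13 (Cct6a, 95% interval -0.41 to 0.68), with an edgeR adjusted p of 0.9999 for each (Benjamini-Hochberg). These intervals include changes of the size measured at day 9. Libraries of the genotypes overlapped for all 8 subunits. Of all genes tested 2.85% did not overlap, 1.35% with cKO lower and 1.5% with cKO higher.

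**Figure D2:**
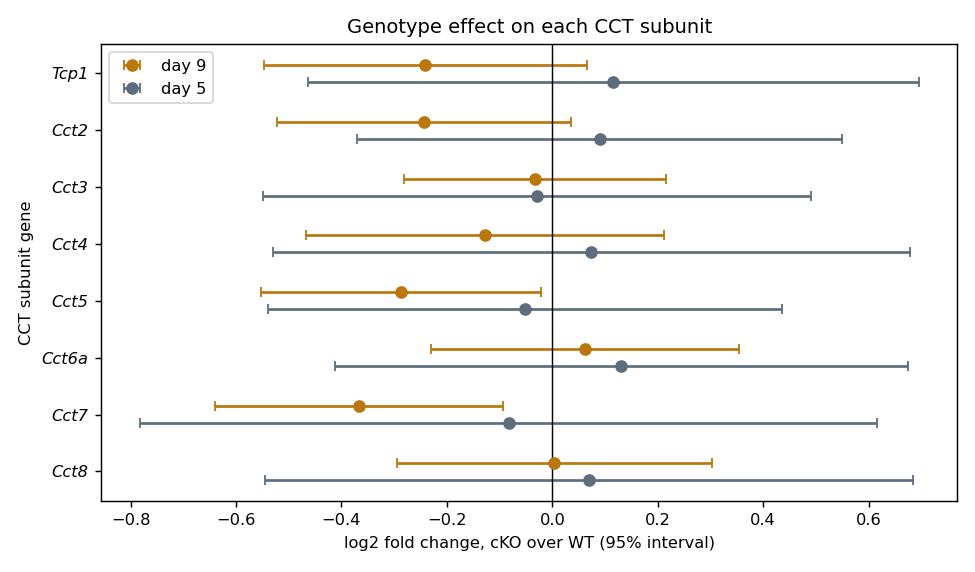
Log2 fold change of each CCT subunit, cKO over WT, at day 9 (ochre) and day 5 (grey), with the 95% interval of the edgeR fit on 6 libraries a day. The interval lies below 0 for Cct5 and Cct7 at day 9 and spans 0 for all 8 subunits at day 5.

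The third comparison asks whether the genotype effect differed between the days, and no such difference was detectable for any subunit. The difference of effects (the day 9 log2 fold change minus that of day 5, over all 12 libraries) was at or below 0 for all 8 subunits, from -0.35 ± 0.27 for Tcp1 and -0.33 ± 0.20 for Cct2 to -0.00 ± 0.21 for Cct3 (SE). For Cct7 it was -0.29 ± 0.31 (95% interval -0.98 to 0.41; edgeR adjusted p = 0.681, Benjamini-Hochberg). None of the 8 passed in edgeR, against 7.71% of 15323 genes, 5.14% with the effect lower at day 9 and 2.57% with it higher. An unadjusted edgeR p under 0.05 was found for 0 of the 8, against 2885 of the 15323 genes. DESeq2 called 0 of the 8. The median was -0.22 over the subunits and -0.00 over all genes. Levels of the days come from separate tables, so day and table cannot be told apart. Side by side, the 8 subunits summed to 1214 to 1540 CPM in cKO and 1456 to 1610 CPM in WT at day 9, and to 2763 to 3133 CPM in cKO and 2584 to 3118 CPM in WT at day 5.

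The balance between the subunits was measured as the share of each in their summed TPM, which does not depend on how libraries are scaled to each other. At day 9, 6 of 8 shares did not overlap between the genotypes: those of Cct3, Cct6a and Cct8 were higher and those of Cct2, Cct5 and Cct7 lower in cKO. Since the shares sum to 100%, they are not independent of each other. In CPM 57.8% of all genes tested and 2 of 8 subunits did not overlap in one direction or the other. CPM levels are a different measure from shares, and no such percentage for shares is given here. Cct6a made up 10.6%, 10.5% and 10.6% in the cKO libraries, against 8.50%, 9.69% and 9.05% in the WT libraries. Cct7 made up 8.68%, 9.15% and 9.17% in cKO, against 11.8%, 9.51% and 10.1% in WT. Its nearest values, 9.17% and 9.51%, lay close together. Cct5 made up 18.2%, 17.6% and 18.3% in cKO, against 19.7%, 19.2% and 19.9% in WT. Each of the 6 differences had an exact permutation p of 0.10, two-sided, the smallest that 3 libraries against 3 allow, and 0.133 after Benjamini-Hochberg adjustment over the 8 subunits, so none could pass 0.05. Differences of the mean shares were 1.48 for Cct3, 1.47 for Cct6a and 1.25 for Cct8, and -1.57 for Cct5, -1.50 for Cct7 and -0.91 for Cct2, in percentage points. Tcp1 (12.8 ± 0.282% in cKO and 12.9 ± 0.539% in WT) and Cct4 (8.93 ± 0.668% in cKO and 9.08 ± 0.282% in WT) overlapped. At day 5 all 8 shares overlapped, and the share of Cct7 alone ran from 8.33% to 14.4% in cKO and from 8.52% to 15.2% in WT.

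**Figure D3:**
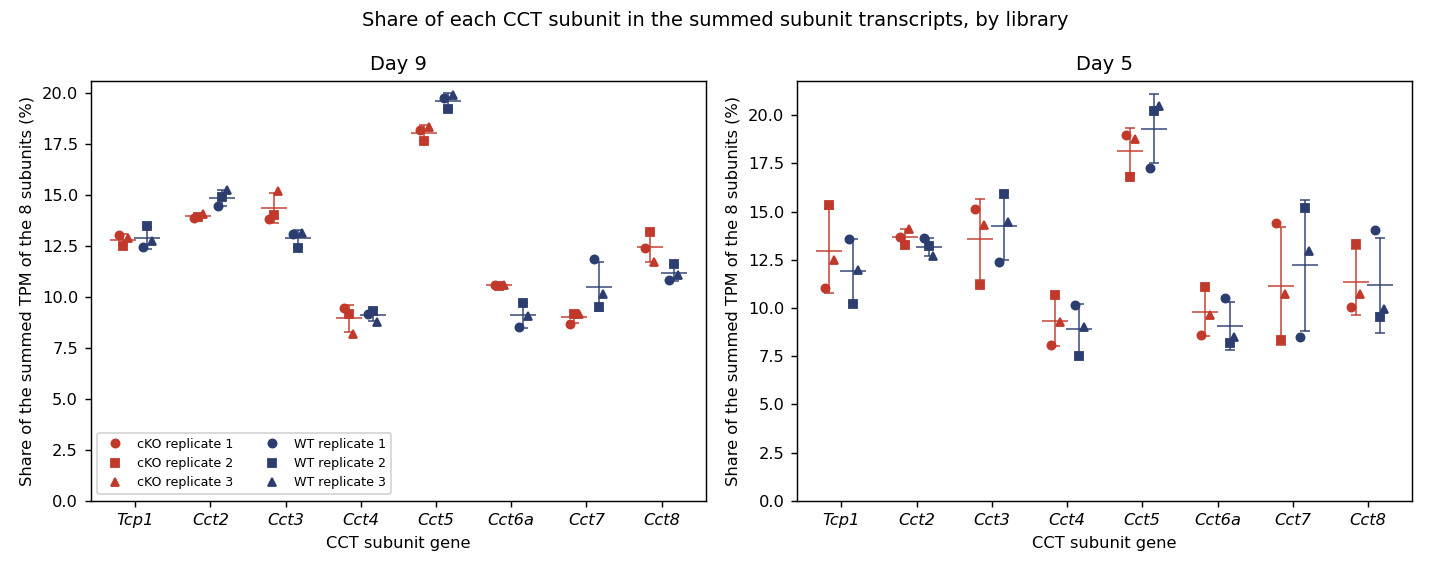
Share of each CCT subunit in the summed TPM of the 8 subunits, in percent, by library at day 9 (left) and day 5 (right), with cKO in red and WT in blue; bars are the mean with SD of 3 libraries. At day 9 the genotypes do not overlap for 6 subunits, and at day 5 the widest spread, that of Cct7, lies within each genotype.

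The balance between the subunits was set beside base composition. At day 9 the richest subunit in G and C, Cct7 (53.95%), had a lower share in cKO and the poorest, Cct8 (43.32%), a higher one. Cct5, at 50.24%, had a lower share in cKO and Cct3, at 49.32%, a higher one. Of Cct6a (47.39%) and Cct2 (47.22%), nearly equal in composition, Cct6a had a higher and Cct2 a lower share. For each library the median deviation of GC-rich genes (the fifth of genes over 55.84% G and C at day 9) from their own mean was set against that of GC-poor genes (under 44.26%), on the log2 CPM scale. This difference was -0.61, -0.33 and -0.42 in the cKO libraries of day 9, against 0.31, 0.30 and 0.81 in the WT libraries, so the genotypes did not overlap. At day 5 the GC difference was 0.88, -1.46 and 0.16 in cKO, against -1.01, 0.78 and 0.63 in WT, with cKO replicate 2 and WT replicate 1 low. The same measure for the fifth of genes with the longest against the fifth with the shortest transcripts was 0.45, 0.14 and 0.46 in the cKO libraries of day 9, against -0.36, -0.24 and -0.46 in the WT libraries. The TPM ratio of Cct7, the richest subunit in G and C, to Cct8, the poorest, was 0.700, 0.696 and 0.784 in the cKO libraries of day 9, against 1.09, 0.821 and 0.916 in the WT libraries. At day 5 the ratio was 1.43, 0.626 and 1.002 in cKO, against 0.607, 1.59 and 1.31 in WT, and its low libraries were again cKO replicate 2 and WT replicate 1. With the GC-content offset in the fit of day 9, no subunit was called, and the order of the subunits differed: Cct8 stood at -0.50 ± 0.20 and Cct4 at -0.42 ± 0.19, and Cct7 at -0.14 ± 0.13 on the log2 scale (SE; edgeR adjusted p = 0.0866, 0.116 and 0.436, Benjamini-Hochberg). The median over the 8 subunits was -0.28 with the offset and -0.18 without it. Genotype and the GC difference between libraries cannot be told apart at day 9. The part of base composition in the balance of the subunits was not tested further.

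**Figure D4:**
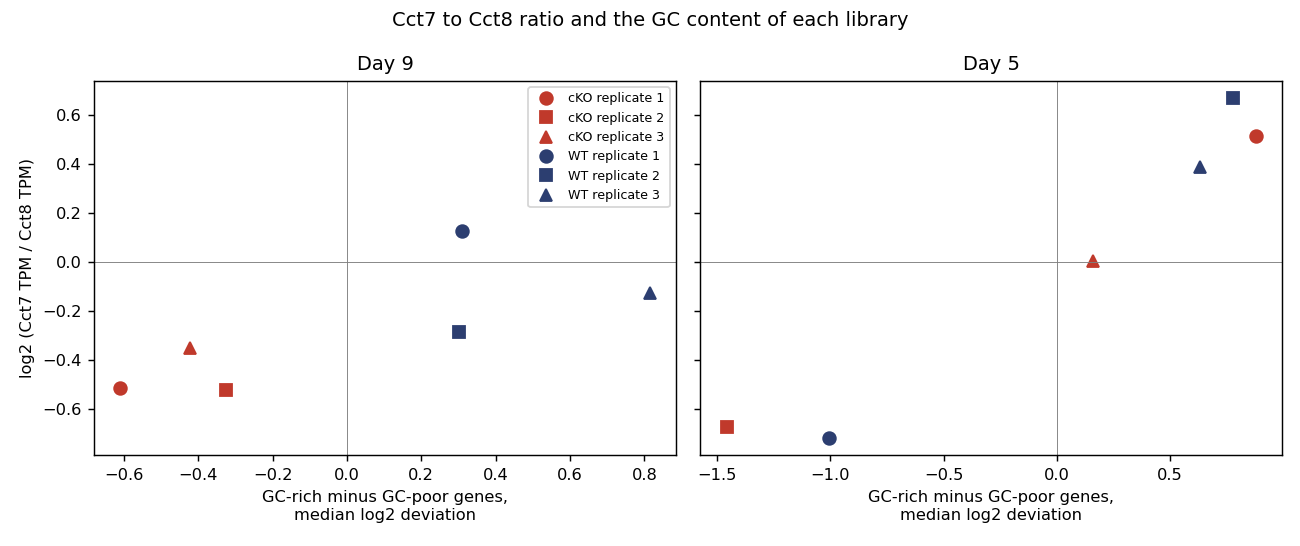
Log2 ratio of Cct7 to Cct8 TPM against the median log2 CPM deviation of GC-rich minus GC-poor genes, 1 mark a library, at day 9 (left) and day 5 (right), with cKO in red and WT in blue. At day 9 the cKO libraries lie at the lower left of the WT libraries, and at day 5 cKO replicate 2 and WT replicate 1 lie at the lower left.

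Among the partners that act before and after CCT, 1 of 6 prefoldin subunits and 2 of 7 tubulin cofactors fell at day 9. These shares lie near the 22.6% of all genes tested that fell, so the partners are not set apart from other genes. Of 6 prefoldin subunits 1 fell and 0 rose, with a median log2 fold change of -0.17; among all genes tested 22.6% fell, 21% rose and 43.6% were called in either direction. Pfdn1, a beta-type prefoldin subunit, was at 37.1 ± 5.63 CPM in cKO and 55.8 ± 2.04 CPM in WT (SD, n = 3) and fell 1.496-fold (edgeR adjusted p = 0.00855, Benjamini-Hochberg). Pfdn5, Pfdn6 and Vbp1 had log2 fold changes of -0.30 ± 0.11, -0.26 ± 0.13 and 0.28 ± 0.21 (SE) and did not pass. Of 3 phosducin-like cofactors tested 0 passed: Pdcl3, Txndc9 and Pdcl were at -0.27 ± 0.15, -0.12 ± 0.14 and 0.01 ± 0.18, with 0 called by DESeq2. An unadjusted edgeR p under 0.05 was found for 0 of 3, against 7925 of 14617 genes. Of 7 tubulin folding cofactors 2 fell and 0 rose (median -0.30). Tbca, which holds beta tubulin, was at 29.3 ± 3.74 CPM in cKO and 43.5 ± 2.18 CPM in WT, and Tbcc, a GTPase activator for tubulin, at 8.03 ± 0.613 CPM in cKO and 11.3 ± 1.52 CPM in WT (edgeR adjusted p = 0.00850 and 0.0373, Benjamini-Hochberg). Tbcb and Tbce were at -0.30 ± 0.13 and 0.29 ± 0.12 on the log2 scale and did not pass. The call of Tbcc held in 5 of 14 alternatives on counts. It ended with DESeq2, the replicate block, the GC-content offset and the fit over all 12 libraries. It also ended without cKO replicate 1 or 3 or WT replicate 1 or 3 (edgeR adjusted p up to 0.112 in these omissions, Benjamini-Hochberg). The calls of Pfdn1 and Tbca each held in 12 of 14, and the fit over all 12 libraries was among the exceptions. Without cKO replicate 2, 3 prefoldin subunits, 1 phosducin-like cofactor and 4 tubulin cofactors were called lower. That fit called 7507 of all genes in either direction, against 6378 with all libraries. With the GC-content offset 2 phosducin-like cofactors were called lower. How many of all genes passed with that offset is not given here, for these or the lists below.

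Among the clients, most tubulin genes changed. Of 12 tubulin genes tested at day 9, 7 fell and 4 rose, with a median log2 fold change of -0.77, against 22.6% lower and 21% higher among all genes tested. Their summed level was not lower: the tubulin genes added up to 4987 to 5907 CPM in cKO and 4718 to 5191 CPM in WT, with the groups overlapping. Tuba1a, the alpha tubulin gene with the highest CPM, named after its values were seen, was at 2914, 3311 and 2685 CPM in cKO, against 1847, 1620.1 and 1739.7 CPM in WT. It rose 1.71-fold (edgeR adjusted p = 0.00258, Benjamini-Hochberg), but was not called in the fit over all 12 libraries and lay below 0 on the TPM scale. On that scale the median of all genes that passed its filter lay below 0 too, as given in the closing section. Tubb6 was at 9.13 ± 0.192 CPM in cKO and 39.0 ± 5.67 CPM in WT, Tubb2a at 114 ± 6.72 CPM in cKO and 298 ± 10.7 CPM in WT, and Tuba1b at 206 ± 27.7 CPM in cKO and 543 ± 45.9 CPM in WT. These 3 fell by 2.09 ± 0.14, 1.38 ± 0.10 and 1.40 ± 0.13 on the log2 scale (SE; edgeR adjusted p = 3.26e-05, 4.43e-05 and 0.000171, Benjamini-Hochberg). Tubb4a, a beta tubulin of myelinating and nerve cells, went the other way and was at 339.5 ± 35.4 CPM in cKO and 32.2 ± 5.95 CPM in WT, 10.5-fold higher (edgeR adjusted p = 1.02e-05, Benjamini-Hochberg). These 4 calls held in each of 14 alternatives on counts. Tubulin genes share much sequence, so reads may be split between them. Of 6 actin and actin-related genes 2 fell and 0 rose (median -0.12), a share near the 22.6% of all genes that fell. They were the dynactin subunits Actr1a and Actr1b (-0.43 ± 0.10 and -0.26 ± 0.09; edgeR adjusted p = 0.0134 and 0.0398, Benjamini-Hochberg), while Actg1, cytoplasmic gamma actin, was at 1635 ± 305 CPM in cKO and 1830 ± 156 CPM in WT and did not pass. The call of Actr1b ended in 11 of 14 alternatives on counts, among them the omission of any 1 library except cKO replicate 2 (edgeR adjusted p up to 0.137, Benjamini-Hochberg). That of Actr1a ended without cKO replicate 1 (0.0557), without cKO replicates 1 and 3 together, in the fit over all 12 libraries and with the GC-content offset (up to 0.196 over these), and with that offset 0 of the 6 genes were called.

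Of 15 other known clients 9 fell and 1 rose at day 9 (median -0.39), against 22.6% and 21% of all genes tested. The mitotic kinase gene Plk1 was at 3.89 ± 0.135 CPM in cKO and 57.8 ± 5.45 CPM in WT, and Cdc20, an activator of the anaphase promoting complex, at 5.02 ± 1.28 CPM in cKO and 67.1 ± 7.56 CPM in WT. They fell 14.8-fold and 13.5-fold, and Fzr1, the second activator of that complex, fell 1.75-fold (edgeR adjusted p = 4.81e-06, 1.02e-05 and 0.00154, Benjamini-Hochberg). The calls of Plk1 and Cdc20 held in each of 14 alternatives on counts, and that of Fzr1 in 13, all but the fit over all 12 libraries. Ppp2r2a, a regulatory subunit of protein phosphatase 2A, rose 1.71-fold (edgeR adjusted p = 0.00142, Benjamini-Hochberg). With the GC-content offset and in the fit over all 12 libraries it was no longer called. With that offset 5 of the 15 clients fell. Genes of S phase and of G2 and M phase moved alongside: 15 of 16 and 14 of 18 fell and 0 rose, with medians of -2.15 and -3.01. The S phase genes summed to 219 to 260.4 CPM in cKO and 881 to 1163 CPM in WT, and the G2 and M genes to 79.9 to 109 CPM in cKO and 609 to 789 CPM in WT, without overlap. Their part in the values of the subunits was not tested.

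**Figure D5:**
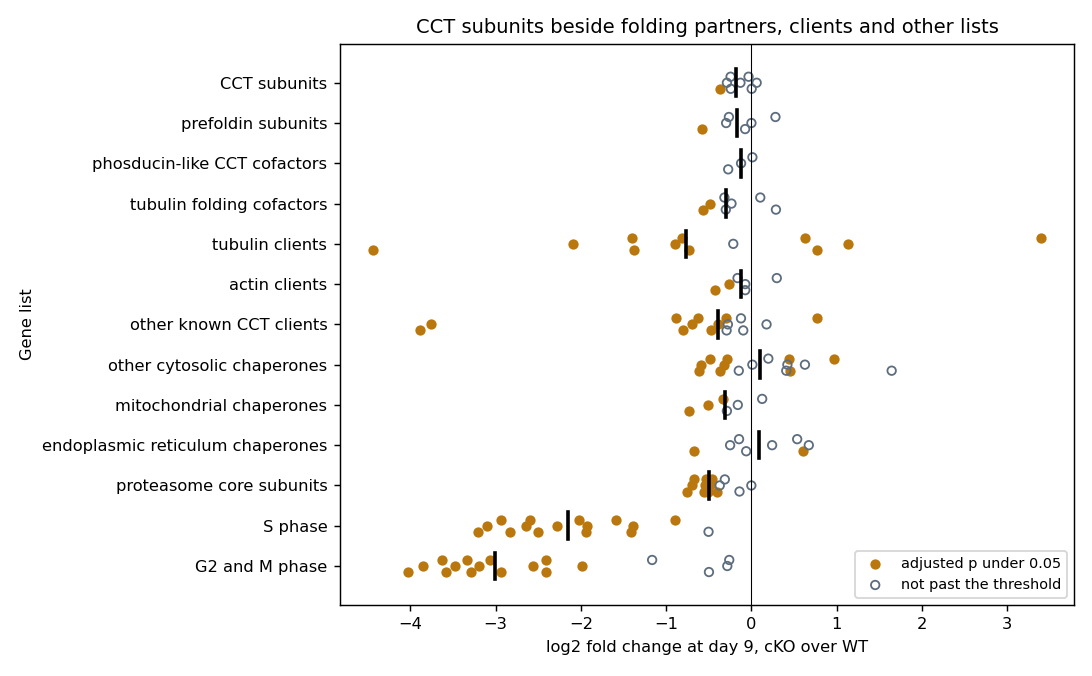
Log2 fold change at day 9, cKO over WT, of each gene in lists of CCT partners, clients, other chaperones, proteasome core subunits and cell cycle genes; filled marks passed an edgeR adjusted p under 0.05, open marks did not, and black ticks are list medians. The CCT subunits lie between -0.37 and 0.06, and tubulin genes between -4.43 and 3.40.

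Other chaperones were mixed at day 9, and the 9 of 16 cytosolic, 3 of 6 mitochondrial and 2 of 8 endoplasmic reticulum genes called stand beside 43.6% of all genes tested (22.6% lower, 21% higher), so they are not set apart from other genes. Of 16 cytosolic chaperone genes 6 fell and 3 rose (median 0.11). The Hsp40 gene Dnajb1 and the kinase co-chaperone gene Cdc37 fell by 0.62 ± 0.11 and 0.59 ± 0.11 on the log2 scale. Chordc1 and the Hsp110 gene Hsph1 rose by 0.97 ± 0.20 and 0.44 ± 0.10 (SE; edgeR adjusted p from 0.00383 to 0.00910 for these 4, Benjamini-Hochberg). Of 14 alternatives on counts, the call of Dnajb1 held in 14, those of Cdc37 and Chordc1 in 12 and that of Hsph1 in 11. With the GC-content offset Chordc1 was negative and not called, and 2 of the 16 rose and 3 fell. When 1 library was left out, the number that rose ran from 2 to 4 and the number that fell from 2 (without WT replicate 2 or 3) to 6, with 3 without cKO replicate 1 or 3. Hsf1 and Hsf2, factors of the heat shock response, did not pass (-0.06 ± 0.11 and 0.35 ± 0.14). Of 6 mitochondrial chaperone genes 3 fell, Trap1, Grpel1 and Hspe1 (median -0.31). Trap1 kept its call whichever library was left out. Grpel1 and Hspe1 lost theirs in each of these fits except that without cKO replicate 2 (edgeR adjusted p up to 0.0640 and 0.125, Benjamini-Hochberg). Of 8 chaperone genes of the endoplasmic reticulum Pdia4 fell and Dnajb9 rose (median 0.09). Trap1 and Pdia4 fell 1.67-fold and 1.60-fold and Dnajb9 rose 1.53-fold (edgeR adjusted p = 0.00125, 0.00104 and 0.0185, Benjamini-Hochberg), but Dnajb9 was not called without cKO replicate 2 or WT replicate 1 or 3 (adjusted p up to 0.0664) and was negative with the GC-content offset. Of the chaperonin-like genes of Bardet-Biedl syndrome, Mkks fell and Bbs10 rose, at 10.6 ± 2.60 and 3.70 ± 0.286 CPM in cKO and 16.7 ± 0.735 and 2.37 ± 0.151 CPM in WT (edgeR adjusted p = 0.0247 and 0.0386, Benjamini-Hochberg). The call of Bbs10 ended whichever library was left out (adjusted p from 0.0695 to 0.125), and that of Mkks without cKO replicate 1 or 3 or WT replicate 1 or 2 (up to 0.0897). The proteasome core, another large complex of the cytosol, had 10 of 14 subunits lower and 0 higher (median -0.50), against the same 22.6% and 21%. That count was 4 without cKO replicate 1, 5 without cKO replicate 3 and 1 without both. Over all genes, 4063 were called without cKO replicate 1, against 6378 with all libraries. At day 5, 0 members of any of these lists passed by edgeR or DESeq2. An unadjusted edgeR p under 0.05 was found there for 0 members, against 89 of 14849 genes tested.

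Markers of other cell types also moved at day 9. Oligodendrocyte lineage markers summed to 4020 to 4886 CPM in cKO and 2856 to 3252 CPM in WT, astrocyte markers to 2227 to 2627 CPM in cKO and 954 to 1284 CPM in WT, and neuron markers to 521 to 584 CPM in cKO and 127 to 293 CPM in WT. Of the tested members, 9 of 13 oligodendrocyte, 7 of 8 astrocyte and 5 of 7 neuron markers rose, and 4 oligodendrocyte markers fell. Among all genes tested 21% rose and 22.6% fell, which is the share beside which these counts and the next stand. Of 8 progenitor markers 4 fell and 1 rose, and their sum was 2209 to 2713 CPM in cKO and 3544 to 3957 CPM in WT. Microglia markers summed to 0.327 to 0.935 CPM in cKO and 0.179 to 0.291 CPM in WT, with Aif1 at 0 and 0 of 6 tested. The part of these cell types in the subunit values was not tested.

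Genes with a pattern most like the mean of the 8 subunits over the 12 libraries were sought among 5608 genes of at least 20 CPM on average at each day, each gene centred on its own mean within a day. The root mean square difference of log2 CPM was the measure, with a median of 0.307 over all these genes. The closest were Arpc2 (0.0351), Rpl4 (0.0554), M6pr (0.0557), Becn1 (0.0578), Xrcc6 (0.0586), Atp6v1d (0.0592), Arf4 (0.0593) and Bcas2 (0.0598). Of the subunits themselves, Cct2 was nearest at 0.0466, Cct5 was at 0.101, Tcp1 at 0.122, Cct4 at 0.132, Cct6a at 0.136, Cct3 at 0.143 and Cct8 at 0.155, and Cct7 was farthest at 0.274. The subunits are part of the mean they were measured against, and all genes share the 12 libraries and their scaling.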

How the data were processed

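RNA of 12 libraries (2 genotypes, 2 days, 3 each) was deposited as tables of expected counts and of TPM per gene, 1 pair of tables a day. Per the submitters' processing notes, RSEM and Bowtie2 were used with mm10. The deposited expected counts and TPM values are RSEM gene results of single-end reads, per the file headers. Which annotation, trimming and strand setting was used is not given in the sources used here. TPM, scaled by the authors' software for length and library total, also carries the share taken by structural RNA, so the deposited TPM values served only for ratios between subunits and for alternative tests.

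Expected counts were rounded to whole numbers. Each day was tested alone, cKO against WT, in R 4.3.3 with edgeR 4.0.16 (filterByExpr with a minimum count of 10, TMM scaling, robust glmQLFit, glmQLFTest), with Benjamini-Hochberg adjustment over all genes tested and a threshold of 0.05. The day difference was tested on the 41592 symbols that occur a single time in each table. A standard error is the size of the log2 fold change over the root of its F statistic. Shares of the summed TPM were compared with two-sided exact permutation tests. Counts of libraries within a group differed by more than sampling noise (chi-square of at least 4.91 per degree of freedom). Precision is limited by 3 libraries a group.

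Alternatives were DESeq2 1.42.0, RLE scaling, no filter on low counts, no structural RNA, a replicate block, left-out libraries, a fit over all 12 libraries and limma 3.58.1 on log2(TPM + 1) or log2(TPM + 0.1). A loess offset for GC content (span 0.5, GC known for 97.04% of the genes tested at day 9) and the joint omission of day 5 WT replicate 1 and cKO replicate 2 were chosen after seeing the data. The members and the gene lists were chosen with earlier results of these data known. Named were all 8 subunits, Lmnb1, up to 4 genes of each list of partners, clients and chaperones with the smallest day 9 adjusted p, and the 8 genes closest to the mean of the subunits, leaving out Gm-numbered, Rik and pseudogene features. A few other genes (Sox2, Nes, Aif1, Gm42418 and overlapping genes) stand as checks.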

Additional observations from a re-analysis of the deposited data

How the results depend on the processing

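At day 9 the count of subunits called lower was 1. It was 2 with DESeq2 and 0 with the replicate block, with cKO replicates 1 and 3 left out together, in the fit over all 12 libraries, with the GC-content offset and with limma on log2(TPM + 1), log2(TPM + 0.1) and log2(TPM + 1) without a filter. It ran from 0 to 4 when 1 library was left out, and the count of subunits called higher stayed at 0 throughout. Cct7 kept its direction in all 17 alternatives and its call in 5. In the filtered fits on TPM the median of all genes was below 0 too, so the direction of Cct7 there does not set it apart. The median of the 8 subunits ran from -0.32 to -0.07 when 1 library was left out, and was -0.02 with cKO replicates 1 and 3 left out together.

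Genes called at day 9 numbered 6378. The number was 3344 with cKO replicates 1 and 3 left out together, 2489 in the fit over all 12 libraries, 337 with limma on log2(TPM + 1), 410 on log2(TPM + 0.1) and 0 on log2(TPM + 1) without a filter, and ran from 4063 (without cKO replicate 1) to 7507 (without cKO replicate 2) when 1 library was left out; it was 4150 without WT replicate 2. On log2(TPM + 1) 60 of 337 calls were higher, on log2(TPM + 0.1) 55 of 410 and in the fit over all 12 libraries 918 of 2489, against 3070 of 6378. On log2(TPM + 1) the median of all genes was -0.91 and that of the subunits -1.23; on log2(TPM + 0.1) they were -1.09 and -1.25. With DESeq2, fitted without the filter on low counts, the median of all genes was 0.35, and its number of genes called is not given here. On TPM Ppp2r2a, Chordc1, Hsph1, Dnajb9 and Bbs10, called higher on counts, lay below 0, and Tubb4a stayed above it. The omission of 2 cKO libraries leaves 1, which is assumed to vary like the WT libraries.

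At day 5 the 1 call became 8 with DESeq2, 2 with limma on log2(TPM + 0.1) and in the fit over all 12 libraries, and 19 with WT replicate 1 and cKO replicate 2 left out together; it became 0 without a filter, with the replicate block, with the GC-content offset, on log2(TPM + 1) without a filter and in each fit that left out 1 library (from 0 to 0). Of the subunits 0 were called at day 5 in any alternative. The day difference had 1181 calls, 322 with the replicate block, 2535 with day 5 WT replicate 1 and cKO replicate 2 left out together, and 756 to 2410 when 1 library was left out, the highest without day 5 cKO replicate 2. Without day 5 cKO replicate 3 it had 769, without day 9 cKO replicate 1 773 and without day 9 WT replicate 2 756. Of the subunits 0 were called in it under any alternative.

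The number of TPM shares without overlap at day 9 was 6 with shares of the summed expected counts and with log2 ratios to the other subunits. Leaving out a library cannot lower that number, which stayed at 6, so this says nothing about its stability. At day 5 it ran from 0 to 4 when 1 library was left out: 4 without WT replicate 1 and 1 without cKO replicate 2, where 2 libraries stand against 3.

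Signs turned for subunits that were not called. Cct8 at day 9 (0.00) was at -0.034 with DESeq2, -0.10 without a filter, -0.0030 with the replicate block, -0.50 with the GC-content offset, and -1.07, -1.08 and -1.07 in the 3 TPM fits. Cct6a at day 9 (0.06) was at -0.040 without a filter, -0.034 with the GC-content offset and -0.998, -1.01 and -0.998 on TPM. With cKO replicates 1 and 3 left out together Cct3 was at 0.069 and Cct4 at 0.092. At day 5 Cct3 was at 0.054 with WT replicate 1 and cKO replicate 2 left out together, and on TPM Cct2, Cct4 and Cct8 were at -0.026, -0.013 and -0.047 on log2(TPM + 1), with or without a filter, and at -0.026, -0.012 and -0.047 on log2(TPM + 0.1). Cct3 in the day difference was at 0.0051 with the replicate block. Leaving out 1 library turned the sign in 26 of 192 values of single subunits, none of them called. There the log2 fold changes at day 9 were -0.12 to 0.012 for Cct3, -0.30 to 0.0073 for Cct4, -0.043 to 0.14 for Cct6a and -0.13 to 0.090 for Cct8. At day 5 they were -0.13 to 0.11 for Cct3, -0.10 to 0.23 for Cct4, -0.14 to 0.065 for Cct5, -0.0063 to 0.29 for Cct6a, -0.27 to 0.11 for Cct7, -0.090 to 0.30 for Cct8 and -0.047 to 0.24 for Tcp1. The day differences were -0.14 to 0.069 for Cct3, -0.24 to 0.073 for Cct6a and -0.31 to 0.099 for Cct8. The causes were not tested.

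Replicate numbers were given to both genotypes, and the labels do not say whether they pair the libraries. Deviations of same-numbered libraries correlated at -0.00, -0.20 and -0.06 at day 9 and at -0.72, -0.50 and 0.53 at day 5. Those of cKO replicate 2 and WT replicate 1 of day 5, with different numbers, correlated at 0.76. With such differences between libraries, these correlations cannot decide whether same-numbered libraries shared a culture or a day. With the replicate block Cct7 at day 9 was at -0.37 (edgeR adjusted p = 0.0752, Benjamini-Hochberg).

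Depth, 13315399 counts at the least with 69.7% structural RNA, and 3 libraries a group limit these comparisons. At day 5 the 95% interval of Cct7 reached from -0.78 to 0.62 on the log2 scale, so differences of the size called at day 9 were not detectable there.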
